A study of Mus musculus with 6 samples.

Results

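The antioxidant, thiol and metal-binding defence genes examined here are 37 genes whose products detoxify reactive oxygen species, keep thiols reduced, or bind iron, zinc and copper. They were taken from the deposited gene table by symbol and occupied 38 of its 26969 rows, because Nnt is listed under 2 Ensembl identifiers. Their transcripts were counted in 6 paired-end RNA-seq libraries, poly(A)-selected, from chondrocytes of wild-type mice, the cartilage-forming cells. The series compares chondrocytes given transplanted mitochondria, which its title ascribes to osteocytes, with chondrocytes that were not given any. The sample labels disagree on which 3 libraries are which. The 3 libraries described as mAC_Mito carry a title and treatment entry of vehicle, and the 3 described as mAC carry an entry of mitochondria. The split into 3 and 3 is the same by either label, and the names mAC_Mito and mAC, from the descriptions and the column names, are used throughout. Differences are mAC_Mito minus mAC. None of them can be read as what mitochondria did. The labels give no age, sex, dose or time for either group, and do not say whether the replicates were separate cultures or animals. The p-values therefore rest on a spread between libraries that may be technical.

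Cells produce superoxide and hydrogen peroxide continuously, mainly at the mitochondrial respiratory chain and in the folding of secreted proteins. Superoxide dismutases turn superoxide into hydrogen peroxide, which catalase, glutathione peroxidases and peroxiredoxins then remove, the last families drawing their electrons from glutathione and thioredoxin and, through reductases, from NADPH. The transcription factor NRF2, encoded by Nfe2l2, drives many of these genes when KEAP1 no longer sends it for degradation. Ferritins store iron that would otherwise feed radical chemistry, and metallothioneins bind zinc and copper through clustered cysteines. Cartilage has no blood vessels and little oxygen, and oxidant balance in its chondrocytes is widely studied in ageing and osteoarthritis.

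The libraries held 59116068 to 68378213 counts each, with at least 1 count for 21437 to 22107 genes. The cartilage markers were abundant. The summed level of 10 chondrocyte genes was 2238 to 3198 FPKM (fragments per kilobase of gene model, scaled to library depth) in mAC_Mito and 2362 to 2760 FPKM in mAC, and Col2a1, the main cartilage collagen, averaged 1390 ± 384 FPKM in mAC_Mito and 1117 ± 101 FPKM in mAC (SD, n = 3 each). Library mAC 1 stood apart in one measure: the 13 messenger RNAs of the mitochondrial genome took 7.31% of its counts. They took 5.60%, 2.91% and 3.40% in mAC_Mito 1, 2 and 3, and 4.71% and 3.13% in mAC 2 and mAC 3.

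None of the 38 rows passed the test between the groups. Differences were small for nearly all of them, and the widest was that of Gpx3, the secreted glutathione peroxidase of plasma, at 225 ± 37.9 FPKM in mAC_Mito and 326 ± 82.8 FPKM in mAC (SD, n = 3 each). All 38 rows passed the filter on low counts, with 377 to 116097 counts in every library. By the quasi-likelihood test of edgeR, adjusted over 17645 genes, no row had an adjusted p below 0.99992, against 1 gene called higher and 1 called lower among all genes tested, 0.00567% in each direction. An unadjusted p under 0.05 was given to 1 of 38 rows, Gpx3, or 2.63%, against 3.19% of all genes tested. On counts scaled to library size by TMM (CPM), no row had all 3 mAC_Mito libraries above all 3 mAC libraries, against 3.93% of all genes, and none had them all below, against 4.38%.

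The fold changes fell on both sides of 0. They were above 0 for 18 rows and below 0 for 20, with a median log2 fold change of -0.016, against 0.0016 over all genes tested. Their median size without sign was 0.06 on the log2 scale, against 0.12 over all genes tested and 0.085 over the 11738 genes with a mean of at least 1 FPKM, a level that every one of the 38 rows reached. The 95% interval of the log2 fold change had a median half-width of 0.28, with a range of 0.19 to 0.88. It lay within 0.5 of 0 on either side for 33 rows and within 1 for 37. Differences smaller than these half-widths could not be told from 0 with 3 libraries a group, even before adjustment. A call after adjustment needed larger ones. Gpx3, at a log2 fold change of -0.56 with a half-width of 0.49, had an adjusted p of 0.99992 by edgeR.

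**Figure D1:**
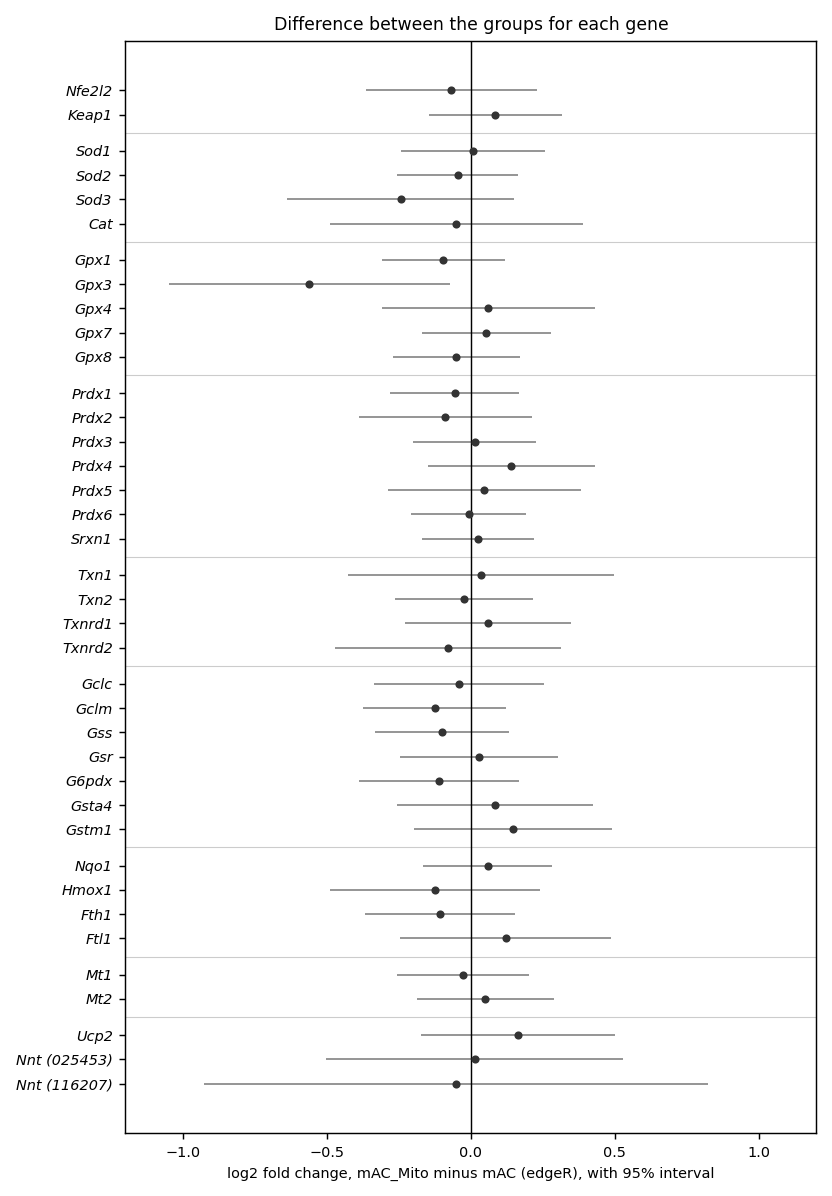
Log2 fold change (mAC_Mito minus mAC, edgeR) of each of the 38 rows on the horizontal axis, ordered by role, with its 95% interval as a line. Gpx3 is the 1 row whose interval, -1.05 to -0.07, excludes 0; the interval of the Nnt identifier with the shorter exons, ENSMUSG00000116207, -0.93 to 0.82, is the widest.

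Levels on the FPKM scale ran from Ftl1, the ferritin light chain, at a mean of 1039 FPKM over all libraries, down to Txnrd2, the mitochondrial thioredoxin reductase, at 1.60 FPKM. Ftl1 alone made up 29.4% of the summed FPKM of the set, and Ftl1, Fth1, Gpx3, Mt2 and Txn1 together made up 57.7%. A mean of at least 100 FPKM was reached by 10 rows, and 10 had a mean under 10 FPKM. Genes are ranked by FPKM here and below, so their order depends on the gene lengths used for it. The set as a whole made up 1.06%, 1.18% and 1.20% of the summed FPKM of mAC_Mito 1, 2 and 3, against 0.967%, 1.16% and 1.22% in mAC 1, 2 and 3. The lowest and the highest of these shares were both mAC libraries, so the groups overlapped. Of all counts, the set took 0.789%, 0.763% and 0.810% in mAC_Mito and 0.768%, 0.848% and 0.833% in mAC, so mAC_Mito 2 was lowest. The difference of the group means was 0.030 percentage points on FPKM and -0.029 on counts. With the messenger RNAs of the mitochondrial genome left out of the FPKM sum, the set made up 1.21% in mAC 1 and 1.25% to 1.34% in the other libraries.

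**Figure D2:**
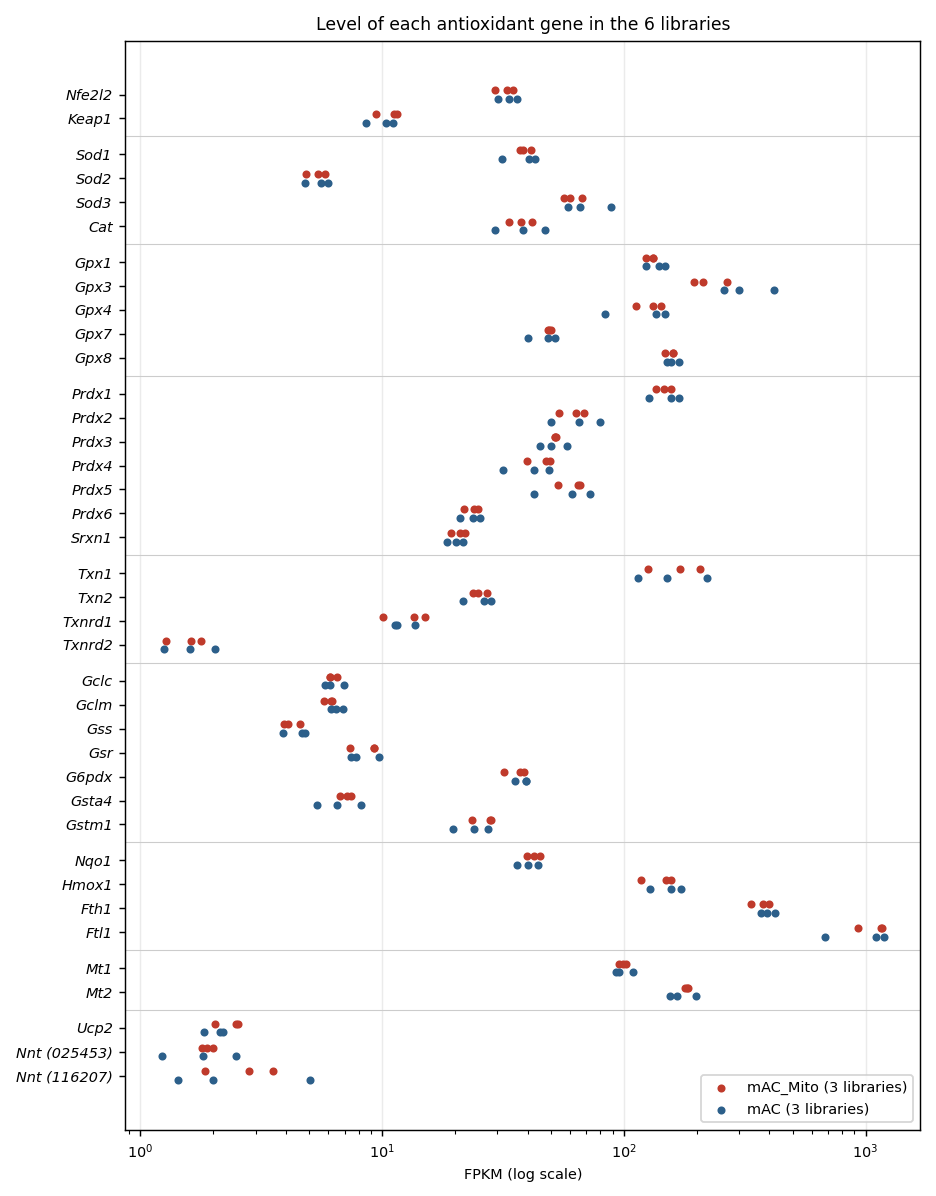
FPKM of each of the 38 rows in each library on a logarithmic horizontal axis, ordered by role, with mAC_Mito (red, 3 libraries) drawn above mAC (blue, 3 libraries) in each row. The ferritins lie at the right (Ftl1 681 to 1195 FPKM), Txnrd2, Ucp2 and Nnt at the left, and in every row the red and blue points overlap.

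Most of the lowest and highest values fell in mAC libraries. The ratio of the highest to the lowest library had a median of 1.35 over the 38 rows, against 1.37 over the genes with a mean of at least 1 FPKM, and ran from 1.15 for Gpx8 to 3.51 for one Nnt identifier. In FPKM, mAC 1 was the lowest of the 6 libraries for 22 of 38 rows, and mAC 3 was the highest for 15. Another 6 ran the opposite way and were highest in mAC 1, namely Nfe2l2, Sod3, Cat, Gpx3, Gclc and Gclm. The share of all genes was not computed for these FPKM counts. On TMM-scaled CPM mAC 1 was lowest for 14 rows, or 36.8%, against 26.6% of genes with a mean of at least 1 FPKM. It was highest for 8 rows, or 21.1%, against 23.1% of those genes. Library mAC 3 was highest for 13 rows, or 34.2%, against 22.3% of them. The part that the mitochondrial share of mAC 1 plays in these orders was not tested.

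Among the regulators, Nfe2l2 (chr2:75675513-75704641 on GRCm38) is the NRF2 gene. It had 34.8, 29.4 and 32.9 FPKM in mAC_Mito 1, 2 and 3, against 36.3, 33.6 and 30.1 FPKM in mAC 1, 2 and 3. The groups overlapped almost completely, with a log2 fold change of -0.07 ± 0.13 (SE). Keap1, its repressor and the sensor of electrophiles, had 9.41, 11.6 and 11.3 FPKM in mAC_Mito and 8.55, 10.4 and 11.1 FPKM in mAC. Again mAC 1 was lowest, the groups overlapped, and the log2 fold change was 0.08 ± 0.10 (SE).

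Superoxide dismutases differ in where they work. SOD3 is secreted and binds the matrix, SOD1 is cytosolic and SOD2 sits in the mitochondrial matrix. In FPKM, Sod3 (chr5:52363791-52371418) was the most abundant of these and Sod2 the least in all 6 libraries. Sod3 had 60.0, 56.8 and 67.3 FPKM in mAC_Mito, against 88.3, 66.0 and 58.7 FPKM in mAC. Only mAC 1 lay above the mAC_Mito range, and the log2 fold change was -0.24 ± 0.18 (SE), with an unadjusted p of 0.198 by edgeR, the next smallest of the set after Gpx3. Without mAC 1 the log2 fold change of Sod3 was 0.0023, and without mAC 3 it was -0.39 with an unadjusted p of 0.0331 by edgeR. Sod2 had 4.87, 5.81 and 5.41 FPKM in mAC_Mito and 4.80, 5.60 and 5.99 FPKM in mAC, and its log2 fold change was -0.05 ± 0.09 (SE). The mitochondrial enzyme thus had a 95% interval of -0.26 to 0.16. Sod1 averaged 38.9 ± 2.06 FPKM in mAC_Mito and 38.3 ± 6.08 FPKM in mAC (SD, n = 3 each). Cat encodes catalase, the peroxisomal enzyme that splits hydrogen peroxide. Its level was 41.8, 33.5 and 37.7 FPKM in mAC_Mito, against 47.2, 38.3 and 29.3 FPKM in mAC. The mAC libraries enclosed all 3 mAC_Mito libraries.

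Glutathione peroxidases carry the one difference of the set whose interval left out 0. Selenoenzymes of this family read a TGA codon, elsewhere a stop, as selenocysteine at the active site, and the others have cysteine there. The codons around this site are shown because they divide the family. They come from the longest coding sequence of each gene among the GENCODE transcripts for GRCm38, with the active-site codon in capitals. Codons are counted from 1 at the start codon of that transcript (codon 47 in Gpx1, 73 in Gpx3, 129 in Gpx4, 56 in Gpx7 and 79 in Gpx8). The numbers may differ in other transcripts, and that of Gpx4 belongs to Gpx4-201, with 253 codons.
Gpx1: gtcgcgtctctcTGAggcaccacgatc
Gpx3: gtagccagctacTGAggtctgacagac
Gpx4: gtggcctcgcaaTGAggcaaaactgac
Gpx7: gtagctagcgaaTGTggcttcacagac
Gpx8: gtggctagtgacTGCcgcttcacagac
Gpx1, Gpx3 and Gpx4 hold the selenocysteine codon TGA, whereas Gpx7 holds TGT and Gpx8 holds TGC, both codons for cysteine. GPX7 and GPX8 work in the endoplasmic reticulum, where collagen and other secreted proteins fold.

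Gpx3 (chr11:54902453-54910377) was the most abundant glutathione peroxidase in every library. It had 268, 194 and 214 FPKM in mAC_Mito 1, 2 and 3, against 418, 300.2 and 259 FPKM in mAC 1, 2 and 3. The highest mAC_Mito library lay just above the lowest mAC library, and mAC 1 stood far above the rest. The log2 fold change was -0.56 ± 0.22 (SE), with a 95% interval of -1.05 to -0.07, an unadjusted p of 0.0285 and an adjusted p of 0.99992 by edgeR. Without mAC 1, the log2 fold change of Gpx3 was -0.28, with an unadjusted p of 0.137 by edgeR. Over the 14 alternatives tried it stayed below 0, between -0.75 and -0.28, with an unadjusted p under 0.05 in 11 of them and no adjusted p below 0.614.

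The other glutathione peroxidases showed no such difference. Gpx8 had 159, 148 and 159 FPKM in mAC_Mito and 151, 169.9 and 156 FPKM in mAC, the narrowest spread over the 6 libraries of any row. Gpx1, the cytosolic enzyme, averaged 129 ± 5.31 FPKM in mAC_Mito and 137 ± 12.6 FPKM in mAC (SD, n = 3 each), a log2 fold change of -0.10 ± 0.10 (SE). Gpx4, which reduces lipid peroxides in membranes and so guards against ferroptosis, had 112, 132 and 142 FPKM in mAC_Mito, against 83.6, 136 and 148 FPKM in mAC. Again mAC 1 was lowest. Its processed pseudogene Gpx4-ps2 was credited with 18.2% to 21.9% as many counts as Gpx4 itself, so the level of Gpx4 is uncertain by the way such reads were assigned. Gpx7 averaged 49.3 ± 0.656 FPKM in mAC_Mito and 47.0 ± 6.08 FPKM in mAC (SD, n = 3 each) and was lowest of the family in every library. Summed FPKM of the 5 genes was 720, 647 and 697 in mAC_Mito and 816, 798 and 759 in mAC, which do not overlap. Without Gpx3 the sums were 453, 452 and 484 FPKM in mAC_Mito, against 398, 497 and 501 FPKM in mAC, and these overlap. On TMM-scaled CPM the sums of all 5 overlapped too, at 1323, 1086 and 1196 in mAC_Mito and 1599, 1409 and 1294 in mAC.

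**Figure D3:**
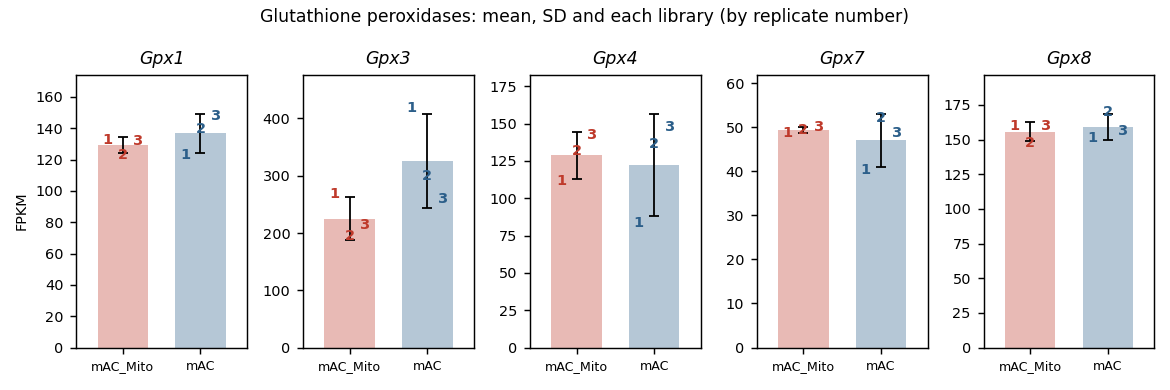
FPKM of the 5 glutathione peroxidase genes, mAC_Mito at the left and mAC at the right in each panel, with bars for the mean of 3 libraries, error bars for the SD, and each library drawn as its replicate number. In the Gpx3 panel library 1 of mAC lies at 418 FPKM, while its library 3, at 259 FPKM, falls below library 1 of mAC_Mito at 268 FPKM.

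Peroxiredoxins remove peroxides with a reactive cysteine. Prdx1, the main cytosolic one, was the most abundant and Prdx6, the one that relies on glutathione rather than thioredoxin, the least abundant of the 6 in all libraries. Prdx1 had 136, 157 and 147 FPKM in mAC_Mito, against 127, 157 and 169.6 FPKM in mAC. Prdx5 varied most among the family, with 53.4, 64.7 and 65.7 FPKM in mAC_Mito and 42.5, 61.3 and 72.8 FPKM in mAC. In both genes mAC 1 was the lowest library and mAC 3 the highest, and the mAC libraries enclosed those of mAC_Mito. Prdx3, the peroxiredoxin of the mitochondrial matrix, had 51.8, 52.0 and 52.6 FPKM in mAC_Mito, a range of under 1 FPKM, against 45.2, 50.0 and 58.1 FPKM in mAC. Its log2 fold change was 0.01 ± 0.10 (SE). Prdx4, which acts in the endoplasmic reticulum, averaged 45.8 ± 5.24 FPKM in mAC_Mito and 41.1 ± 8.81 FPKM in mAC (SD, n = 3 each), a log2 fold change of 0.14 ± 0.13 (SE). Prdx2 averaged 61.8 ± 7.40 FPKM in mAC_Mito and 65.1 ± 14.7 FPKM in mAC, and Prdx6 23.6 ± 1.66 FPKM in mAC_Mito and 23.4 ± 2.29 FPKM in mAC (SD, n = 3 each). Srxn1 encodes sulfiredoxin, which repairs overoxidized peroxiredoxins and is a well-known NRF2 target. Its level was 19.2, 22.0 and 21.0 FPKM in mAC_Mito, against 18.5, 20.3 and 21.5 FPKM in mAC, with a log2 fold change of 0.02 ± 0.09 (SE). That interval, from -0.17 to 0.22, was the narrowest of the set.

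Thioredoxins reduce peroxiredoxins and many other proteins, and thioredoxin reductases recharge them from NADPH. The reductases are selenoproteins with the selenocysteine codon next to last, shown here with the same conventions as above and followed by the last amino acid codon and the stop codon (codon 612 of 613 in Txnrd1 and 526 of 527 in Txnrd2).
Txnrd1: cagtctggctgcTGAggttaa
Txnrd2: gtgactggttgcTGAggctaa
Txn1, the cytosolic thioredoxin (chr4:57943373-57956411), had 126, 207 and 172 FPKM in mAC_Mito 1, 2 and 3, against 115, 151 and 221 FPKM in mAC 1, 2 and 3. It varied 1.93-fold over the libraries, with library 1 lowest in both groups, while the group means of 168 ± 40.8 FPKM in mAC_Mito and 162 ± 54.0 FPKM in mAC (SD, n = 3 each) nearly coincided. Txnrd1, the cytosolic reductase, had 10.1, 15.1 and 13.5 FPKM in mAC_Mito and 11.6, 11.4 and 13.7 FPKM in mAC. Here mAC_Mito held both the lowest and the highest library. The mitochondrial pair was lower on this scale. Txn2 averaged 25.3 ± 1.65 FPKM in mAC_Mito and 25.4 ± 3.39 FPKM in mAC, and Txnrd2 1.56 ± 0.256 FPKM in mAC_Mito and 1.64 ± 0.394 FPKM in mAC (SD, n = 3 each).

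Glutathione is made in successive steps, by glutamate-cysteine ligase and glutathione synthetase. Gclc, the catalytic subunit of the ligase, had 6.52, 6.10 and 6.09 FPKM in mAC_Mito and 6.99, 6.11 and 5.83 FPKM in mAC. Gclm, its modifier subunit, had 6.20, 6.16 and 5.78 FPKM in mAC_Mito, against 6.89, 6.14 and 6.44 FPKM in mAC. Both subunits were highest in mAC 1, both overlapped between groups, and their log2 fold changes were -0.04 ± 0.13 (SE) for Gclc and -0.13 ± 0.11 (SE) for Gclm. An antisense gene, Gm17494, shares 296 exon bases with Gclm, 4.71% of them, and its counts were 993, 7998 and 1753 in mAC_Mito 1, 2 and 3 and 1482, 9798 and 7564 in mAC 1, 2 and 3. Gclm itself had 2976, 2623 and 2524 counts in mAC_Mito and 3061, 3044 and 2894 in mAC, and the part of antisense reads in them was not tested. Gss, the synthetase, averaged 4.20 ± 0.327 FPKM in mAC_Mito and 4.45 ± 0.484 FPKM in mAC (SD, n = 3 each).

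Oxidized glutathione is reduced by the product of Gsr with NADPH from G6pdx, the first enzyme of the pentose phosphate pathway. G6pdx, the most abundant gene of this role, had 38.5, 31.9 and 37.1 FPKM in mAC_Mito and 39.4, 39.6 and 35.6 FPKM in mAC. Its log2 fold change was -0.11 ± 0.12 (SE), and mAC_Mito 2 was the lowest library. Gsr averaged 8.62 ± 1.09 FPKM in mAC_Mito and 8.33 ± 1.21 FPKM in mAC (SD, n = 3 each). Of the transferases that attach glutathione to electrophiles, Gsta4, which acts on the lipid aldehyde hydroxynonenal, had 7.48, 7.17 and 6.70 FPKM in mAC_Mito, against 5.36, 6.50 and 8.18 FPKM in mAC. The mAC libraries spread on both sides of the mAC_Mito ones. Gstm1 averaged 26.6 ± 2.58 FPKM in mAC_Mito and 23.7 ± 3.89 FPKM in mAC (SD, n = 3 each), a log2 fold change of 0.15 ± 0.15 (SE).

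Nqo1 and Hmox1 are the most used reporters of the NRF2 response. Nqo1, a quinone reductase, had 42.6, 44.8 and 39.7 FPKM in mAC_Mito, against 36.2, 44.2 and 40.2 FPKM in mAC. Hmox1, which breaks haem into biliverdin, carbon monoxide and iron, had 157, 118 and 149 FPKM in mAC_Mito and 157, 172 and 128 FPKM in mAC. Neither separated the groups. Nqo1 had a log2 fold change of 0.06 ± 0.10 (SE) and a 95% interval of -0.16 to 0.28, and Hmox1 one of -0.12 ± 0.16 (SE) and -0.49 to 0.24.

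The ferritin chains had the highest mean FPKM of the set, followed by Gpx3. Both mRNAs carry an iron-responsive element in the 5′ untranslated region, a hairpin that iron regulatory proteins bind to block translation when iron is scarce, so that ferritin protein can change while its mRNA does not. The elements are shown because mRNA counts do not read this step. They are 30-base windows of GENCODE transcripts for GRCm38, from which the loop, in capitals, was found between 5 paired bases on either side.
Fth1: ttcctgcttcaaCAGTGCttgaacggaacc
Ftl1: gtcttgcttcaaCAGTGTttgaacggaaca
Ftl1 (chr7:45457944-45459884) had 933, 1156 and 1172 FPKM in mAC_Mito 1, 2 and 3, against 681, 1099.7 and 1195 FPKM in mAC 1, 2 and 3. Library mAC 1 lay well under all others, the remaining 5 overlapped, and the log2 fold change was 0.12 ± 0.16 (SE). Fth1, the heavy chain with ferroxidase activity (chr19:9980598-9985092), had 378, 336 and 399 FPKM in mAC_Mito and 392, 421 and 369 FPKM in mAC. Its log2 fold change was -0.11 ± 0.12 (SE). In FPKM, Ftl1 was first of the set in all 6 libraries, and Fth1 second in all but mAC 1, where Gpx3 was second. The order of the chains differed in counts. Fth1 lay above Ftl1 in mAC_Mito 1 (99990 against 95384) and mAC 1 (95803 against 64377), and below it in the other libraries. Pseudogene Ftl1-ps1 was credited with 1.42% to 1.89% as many counts as Ftl1.

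The metallothioneins Mt1 and Mt2 lie 5513 bases apart on chromosome 8 (Mt1 at chr8:94179082-94180327 and Mt2 at chr8:94172664-94173568). They encode related small proteins, and their coding sequences (GENCODE, GRCm38) are shown with each cysteine codon in capitals, since cysteine is what binds the metal.
Mt1: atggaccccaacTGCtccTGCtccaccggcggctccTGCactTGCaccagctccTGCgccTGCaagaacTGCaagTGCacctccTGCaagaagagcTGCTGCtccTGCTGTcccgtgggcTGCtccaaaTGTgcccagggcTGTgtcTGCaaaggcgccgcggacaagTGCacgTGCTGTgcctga
Mt2: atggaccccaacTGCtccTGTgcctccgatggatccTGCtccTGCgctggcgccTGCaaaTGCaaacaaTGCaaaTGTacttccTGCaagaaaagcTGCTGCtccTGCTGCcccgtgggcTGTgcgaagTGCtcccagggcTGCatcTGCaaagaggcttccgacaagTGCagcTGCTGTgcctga
Each sequence holds 61 codons before the stop, of which 20, or 32.8%, encode cysteine, and all 20 stand at the same places in both. The sequences share 148 of 186 bases (79.6%), and 46 codons encode the same amino acid.

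Mt2 had 184, 183 and 179 FPKM in mAC_Mito 1, 2 and 3, against 155, 199 and 166 FPKM in mAC 1, 2 and 3. Mt1 had 102, 95.5 and 99.5 FPKM in mAC_Mito and 93.1, 109.5 and 95.9 FPKM in mAC. In both genes mAC 2 was highest and mAC 1 lowest, with the mAC_Mito libraries between them. The SD of Mt2 was 2.35 FPKM in mAC_Mito and 22.6 FPKM in mAC, and the log2 fold changes were 0.05 ± 0.11 (SE) for Mt2 and -0.03 ± 0.10 (SE) for Mt1. Gm45774, an antisense gene that covers 73.5% of the exon bases of Mt2, drew 34 to 94 counts a library, against a mean of 7580 for Mt2.

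Metal-responsive elements, bound by the zinc sensor MTF1, and antioxidant response elements, bound by NRF2, were searched as letters on both strands in the RefSeq promoter table for GRCm38.p6, which gives 250 bases before and 50 after each start. The metal motif was spelled TGCNCNC and the antioxidant motif TGACNNNGC. The 250 bases before the start of each metallothionein are shown 5′ to 3′ on the gene's strand (Mt1 at chr8:94178839-94179088 and Mt2 at chr8:94172368-94172617), with every match to the metal motif, read on either strand, in capitals.
Mt1: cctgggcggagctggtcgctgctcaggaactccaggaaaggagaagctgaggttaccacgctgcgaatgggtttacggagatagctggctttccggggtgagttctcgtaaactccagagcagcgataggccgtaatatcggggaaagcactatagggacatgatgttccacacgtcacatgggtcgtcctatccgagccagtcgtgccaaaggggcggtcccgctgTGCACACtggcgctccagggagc
Mt2: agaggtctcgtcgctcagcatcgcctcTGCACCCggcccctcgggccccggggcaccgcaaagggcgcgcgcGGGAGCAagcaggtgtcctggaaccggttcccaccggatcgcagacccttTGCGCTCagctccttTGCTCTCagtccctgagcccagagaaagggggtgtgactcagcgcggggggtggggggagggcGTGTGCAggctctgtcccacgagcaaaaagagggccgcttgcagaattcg
Mt1 holds 1 match in this stretch and Mt2 holds 5, and with the 50 bases after the start the counts are 3 for Mt1 and 6 for Mt2. Within the 250 bases, at least as many were found in 44.4% of all promoters for 1 match and in 0.344% for 5. A match is a run of letters and not a measured binding site. The contrast of 1 against 5 depends on the start used for each gene, and further matches of Mt1 lie 2 and 20 bases past its start. The search covers neither more distant upstream sequence nor sequence beyond the 50 bases after the start.

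Promoters of 30 of the 37 genes were in the table. Some had several starts, which gave 37 promoters. The metal motif occurred in 19 of the 37 (51.4%), against 51.0% of all 32851 promoters over the same 300 bases. The antioxidant motif occurred in 9 of the 37 (24.3%), against 12.4% of all promoters, and these belong to G6pdx, Gclm, Mt2, Nfe2l2, Prdx1, Sod1, Srxn1, Txnrd1 and Ucp2. The windows of 4 genes are shown for the genes described above, each with 10 bases on either side and the motif in capitals, on the strand that reads as the motif.
Prdx1: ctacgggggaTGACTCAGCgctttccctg
Mt2: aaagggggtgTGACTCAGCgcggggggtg
Srxn1: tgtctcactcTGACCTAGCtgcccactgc
Gclm: tcgtgagagtTGACGGTGCgcccgggagc
Prdx1 (chr4:116685456-116685484) and Mt2 (chr8:94172529-94172557) share the same 9 letters. The match of Srxn1 (chr2:152105542-152105570) lies past the start of the gene, and that of Gclm (chr3:122245413-122245441) overlaps a match to the metal motif. None of the 9 genes with a match passed the test between the groups.

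Ucp2 and Nnt act at the inner mitochondrial membrane. Ucp2, an uncoupling protein held to limit superoxide formation, had 2.48, 2.03 and 2.53 FPKM in mAC_Mito, against 2.21, 2.14 and 1.84 FPKM in mAC. The groups overlapped, and its log2 fold change of 0.16 ± 0.15 (SE) was the most positive of the set. Nnt, the transhydrogenase that makes NADPH in the mitochondrial matrix, is known to be partly deleted in C57BL/6J mice. The strain is not given in the labels. Its identifiers, ENSMUSG00000025453 (chr13:119335448-119408997) and ENSMUSG00000116207 (chr13:119335528-119408952), cover nearly the same interval on the same strand, and all 3339 exon bases of the second lie in exons of the first.

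Counts of the first Nnt identifier were 1080, 860 and 922 in mAC_Mito 1, 2 and 3 and 906, 1388 and 619 in mAC 1, 2 and 3. Those of the second were 472, 801 and 653 in mAC_Mito and 470, 377 and 1199 in mAC. The libraries high in one tended to be low in the other, above all mAC 2 and mAC 3. The second identifier took 30.4%, 48.2% and 41.5% of the pair in mAC_Mito, against 34.2%, 21.4% and 66.0% in mAC. Added up, the pair had 24.4, 27.6 and 25.7 CPM in mAC_Mito and 23.3, 25.8 and 29.1 CPM in mAC. The sum thus spread far less than either identifier, and how reads in the shared exons were divided is not given in the sources used here.

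**Figure D4:**
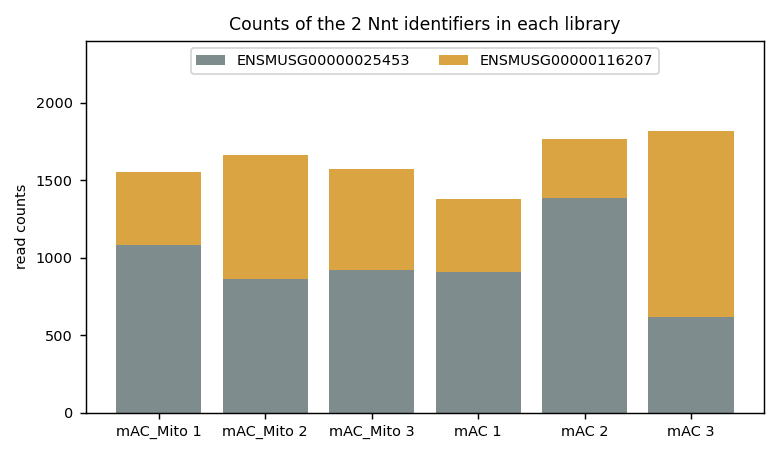
Read counts of the 2 Nnt identifiers stacked in each of the 6 libraries, mAC_Mito at the left and mAC at the right. The total lies between 1376 and 1818 counts, while the share of ENSMUSG00000116207 ranges from 21.4% in mAC 2 to 66.0% in mAC 3.

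Ratios of partner genes within a library, which do not depend on how libraries are scaled, were compared for 6 pairs by a two-sided exact permutation test of 3 against 3 libraries, whose smallest possible p is 0.1. No pair reached it. The ratios are of FPKM, so their level depends on the gene lengths used for it. The ratio of Mt2 to Mt1 was 1.80, 1.91 and 1.80 in mAC_Mito and 1.67, 1.82 and 1.73 in mAC, with an exact p of 0.3 (adjusted over the 6 ratios, 0.75). It spanned 1.15-fold over the 6 libraries, less than either gene. In counts, Mt1 lay above Mt2 in all 6 libraries, as in mAC_Mito 1 with 9693 against 8249. The ratio of Gclm to Gclc was 0.951, 1.01 and 0.949 in mAC_Mito, against 0.986, 1.01 and 1.10 in mAC, with the same exact p. On the FPKM scale the transcripts of the ligase subunits thus stayed near parity in all 6 libraries. In counts, Gclm lay above Gclc in each of them, as in mAC_Mito 1 with 2976 against 1875. The ratio of Fth1 to Ftl1 was 0.405, 0.291 and 0.340 in mAC_Mito and 0.575, 0.383 and 0.309 in mAC (exact p 0.5, adjusted 0.75), and spanned 1.98-fold, more than either chain. For Sod2 over Sod1, the mean ratio was 0.138 ± 0.0159 in mAC_Mito and 0.144 ± 0.0117 in mAC (SD, n = 3 each; exact p 0.8, adjusted 0.96). Hmox1 over Nqo1 averaged 3.36 ± 0.626 in mAC_Mito and 3.80 ± 0.583 in mAC (SD, n = 3 each; exact p 0.5, adjusted 0.75), and Txnrd1 over Txn1 0.0775 ± 0.00395 in mAC_Mito and 0.0792 ± 0.0198 in mAC (SD, n = 3 each; exact p 1, adjusted 1).

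**Figure D5:**
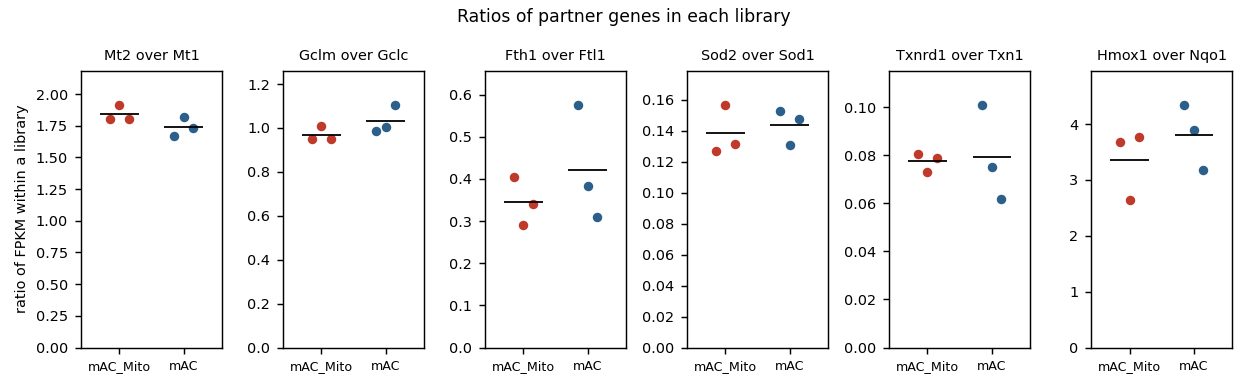
Ratio of FPKM within a library for 6 pairs of partner genes, mAC_Mito at the left and mAC at the right of each panel, with a point per library and a line at the mean of 3. Mt2 over Mt1 stays between 1.67 and 1.91, while Fth1 over Ftl1 ranges from 0.291 to 0.575, and in every panel the groups overlap.

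The genes around these pathways were counted in 7 lists of 149 genes, of which 134 were tested. None of the 134 was called, and 6 had an unadjusted p under 0.05 by edgeR, or 4.48% against 3.19% of all genes. The groups did not overlap for 4 of them with mAC_Mito higher, or 2.99% against 3.93% of all genes, and for 9 with mAC_Mito lower, or 6.72% against 4.38%. Among the regulators of NRF2, Nfe2l1, a related factor, had 53.7, 62.9 and 62.7 FPKM in mAC_Mito, against 43.5, 54.1 and 54.5 FPKM in mAC, a log2 fold change of 0.22 ± 0.10 (SE). Its FPKM ranges overlapped, although its TMM-scaled values did not. Sqstm1, whose product p62 competes for KEAP1, averaged 94.9 ± 4.39 FPKM in mAC_Mito and 87.1 ± 14.0 FPKM in mAC (SD, n = 3 each). Of 20 further NRF2 targets, none had an unadjusted p under 0.05, and Akr1a1, an aldehyde reductase and the most abundant, averaged 191 ± 12.7 FPKM in mAC_Mito and 189 ± 31.9 FPKM in mAC (SD, n = 3 each). Psat1, an enzyme of serine synthesis and the target with the smallest unadjusted p (0.102 by edgeR), had 65.1, 75.3 and 73.8 FPKM in mAC_Mito, against 72.1, 77.7 and 87.0 FPKM in mAC.

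In the selenoprotein list, Dio2, the deiodinase that activates thyroid hormone, had 5.31, 5.38 and 5.83 FPKM in mAC_Mito, against 6.53, 7.31 and 7.84 FPKM in mAC. All 3 mAC_Mito libraries lay below all 3 of mAC, with a log2 fold change of -0.41 ± 0.09 (SE), an unadjusted p of 0.00162 and an adjusted p of 0.99992 by edgeR. Selenow, the most abundant selenoprotein gene of that list, averaged 150 ± 5.54 FPKM in mAC_Mito and 145 ± 8.75 FPKM in mAC (SD, n = 3 each). Among the thiol genes, Ggt5, a gamma-glutamyl transferase, had 0.422, 0.445 and 0.464 FPKM in mAC_Mito and 0.261, 0.340 and 0.276 FPKM in mAC. The groups did not overlap, and the adjusted p was 0.99992 by edgeR. Gstp1, the most abundant thiol gene of the list, averaged 83.6 ± 8.13 FPKM in mAC_Mito and 85.0 ± 14.9 FPKM in mAC (SD, n = 3 each).

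Iron, zinc and oxidant-source genes held other examples. Slc25a37, the mitochondrial iron importer mitoferrin, had 4.38, 4.89 and 4.25 FPKM in mAC_Mito and 5.10, 5.17 and 5.21 FPKM in mAC. Slc39a10, a zinc importer, had 4.23, 4.33 and 3.42 FPKM in mAC_Mito, against 4.89, 4.80 and 4.69 FPKM in mAC. In both, all mAC_Mito libraries were below those of mAC, and both had an adjusted p of 0.99992 by edgeR. The most abundant genes of their lists overlapped between groups, with the iron chaperone gene Pcbp1 at 131 ± 3.14 FPKM in mAC_Mito and 126 ± 10.1 FPKM in mAC, and the zinc transporter gene Slc39a7 at 84.0 ± 15.3 FPKM in mAC_Mito and 76.6 ± 15.6 FPKM in mAC (SD, n = 3 each). Of the oxidant sources, Lox, the lysyl oxidase that crosslinks collagen and releases hydrogen peroxide, had 454, 541 and 543 FPKM in mAC_Mito, against 660.3, 581 and 562 FPKM in mAC. The groups did not overlap, with a log2 fold change of -0.26 ± 0.12 (SE) and an unadjusted p of 0.0558 by edgeR. Maob, the monoamine oxidase of the outer mitochondrial membrane, had 0.771, 0.839 and 0.784 FPKM in mAC_Mito and 0.916, 1.13 and 1.55 FPKM in mAC, a log2 fold change of -0.60 ± 0.21 (SE).

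Markers of other cell types were counted too. Fold changes were above 0 for 7 of 7 macrophage and leukocyte genes (median log2 fold change 0.39), 6 of 6 adipocyte genes (0.19), 6 of 6 skeletal muscle genes (0.22) and 4 of 5 endothelial genes (0.21). They were above 0 for 6 of 10 chondrocyte genes (0.045) and 3 of 4 osteoblast and osteocyte genes tested (0.097). The median over all genes tested was 0.0016, and none of these marker genes was called. Of 7 macrophage and leukocyte genes, the summed level was 66.5 to 109.7 FPKM in mAC_Mito and 60.1 to 76.6 FPKM in mAC, most of it Lyz2, while Ptprc, the pan-leukocyte marker, stayed under 0.1 FPKM in every library. Itgam and Adgre1 were higher in all 3 mAC_Mito libraries than in all 3 of mAC on TMM-scaled counts, with Itgam at 0.347 ± 0.0903 FPKM in mAC_Mito and 0.197 ± 0.0488 FPKM in mAC (SD, n = 3 each). The erythroid sum was at most 0.394 FPKM in mAC_Mito and 0.412 FPKM in mAC, and the endothelial sum at most 0.422 FPKM in mAC_Mito and 0.370 FPKM in mAC. The 6 adipocyte genes summed to 87.2 to 108 FPKM in mAC_Mito and 65.5 to 103 FPKM in mAC, with the adipokine gene Adipoq between 12.4 and 21.4 FPKM over the 6 libraries. Lpl, the lipoprotein lipase gene of that list, had 13.2, 13.2 and 15.1 FPKM in mAC_Mito, against 9.86, 11.5 and 12.9 FPKM in mAC, with no overlap and an unadjusted p of 0.0288 by edgeR. The 6 skeletal muscle genes summed to 44.9 to 53.7 FPKM in mAC_Mito and 35.1 to 53.1 FPKM in mAC. For both the adipocyte and the muscle sums only mAC 1, at 65.5 and 35.1 FPKM, lay below the mAC_Mito range, and mAC 2 and mAC 3 lay within it. The osteoblast and osteocyte genes summed to at most 13.0 FPKM in mAC_Mito and 12.2 FPKM in mAC. Of the osteocyte genes, Sost was listed at no more than 0.0222 FPKM in mAC_Mito and 0.0489 FPKM in mAC, and Dmp1 at no more than 0.104 FPKM in mAC_Mito and 0.0559 FPKM in mAC. In such bulk libraries fewer cells of a type and less RNA per cell cannot be told apart, and the part of other cells in the levels above was not tested.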

How the data were processed

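The deposited table lists 26969 genes by Ensembl identifier and gives, per the file headers, a raw read count and an FPKM value for each library. The count was deposited without normalization, and FPKM was scaled by the authors to gene length and library depth. Per the submitters' processing notes, the tools were Bowtie 0.12.2, HISAT2 2.0 and StringTie 1.3.0 and the build mm8, with no role stated for any. Positions are those of the table: of the 38 rows, 32 have the same start and end as the GENCODE annotation of GRCm38 (mouse release 21), and all 38 share at least 1 end with it. How reads were counted, by strand or when they matched several genes, is not given in the sources used here. Per the labels' protocols, RNA was captured on poly-T beads, and the text speaks of an adipose type although the source is given as chondrocytes.

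Counts were compared with edgeR 4.0.16 (quasi-likelihood test, R 4.3.3) after TMM scaling, on the 17645 genes kept by filterByExpr (minimum count 10, minimum total 15). Tests were two-sided, and a gene was called at an adjusted p under 0.05 (Benjamini-Hochberg, over all 17645 genes). Standard errors and 95% intervals are those implied by the F statistic. Alternatives used limma 3.58.1, DESeq2 1.42.0, other scalings and filters, a replicate block, and each library left out in turn. The edgeR step was also tested on simulated data. Depth was 59116068 to 68378213 counts a library. Lists of neighbouring pathway and cell type genes were counted, with no set test.

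The 37 genes, the lists and the rule for named genes were chosen with earlier results of these data known. The rule gave values in every library for members past the test or without overlap, the most abundant and the most variable member of each role, both metallothioneins and ferritins, and Nfe2l2, Keap1, Nqo1, Hmox1, Sod2, Gclm, Gclc, Srxn1, Txnrd1, Ucp2 and Nnt. Prdx3, Gpx4 and Gpx8 were added after their values were seen. From each list it took the gene with the smallest unadjusted p and the most abundant one. The antisense genes, the pseudogenes and single cell type markers were added after their values were seen.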

Additional observations from a re-analysis of the deposited data

How the results depend on the processing

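No member was called under any of the 14 alternatives, and no adjusted p of a member fell below 0.614; 14 of the 38 rows kept the sign of their fold change in all of them, and up to 12 changed it, without mAC 1. Among all genes, 2 were called as reported, 0 with no filter on low counts, 4 by DESeq2, 0 by limma on log2(FPKM + 1) and 1 by limma on log2(FPKM + 0.1); the cause was not tested. Leaving out single libraries gave 0 to 4 called genes (0 without mAC_Mito 1 or mAC_Mito 3, and 4 without mAC_Mito 2 or mAC 3) and 0 members called. The median log2 fold change of the members was then -0.034 to 0.0093. In these fits 0 to 2 members did not overlap with mAC_Mito higher, and 0 to 3 with mAC_Mito lower. Such counts compare 2 libraries with 3, where separation is reached more easily. Their share over all genes was not computed, so they cannot be read against the shares for 3 against 3. Replicate numbers are shared between the groups. The deviations of same-numbered libraries had correlations of 0.124, -0.060 and -0.012, and those of differently numbered ones ran from -0.140 to 0.154. With 3 libraries a group, these values cannot decide whether the numbers pair the libraries. With the replicate block 2 genes and 0 members were called, and the median of the members was 0.0022. Gpx3 then had an unadjusted p of 0.00184 and an adjusted p of 0.9993 by edgeR. The unadjusted p of Gpx3 was under 0.05 in 11 of the 14 alternatives and lost that without mAC_Mito 2, mAC_Mito 3 or mAC 1. With 3 libraries a group, the interval half-widths of the log2 fold changes limit what could be seen, and a call after adjustment needed larger differences than these.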
